A study of Mus musculus with 6 samples.

Results

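The transforming growth factor beta (TGF-beta) genes described here are 10 in number: the ligand genes Tgfb1, Tgfb2, Tgfb3 and Inhba, the receptor genes Tgfbr1, Tgfbr2 and Tgfbr3, and the latent TGF-beta binding protein genes Ltbp1, Ltbp2 and Ltbp3. Every probe set that the platform's annotation assigns to one of these symbols was kept on its own, which gave 25 probe sets of the 45101 in the deposited table. Of these, 21 passed the filter on dim probe sets and were tested, and 4 lay below it. They were measured in 2T3 mouse pre-osteoblasts kept for 3 days, with 3 arrays in each group. The titles of both groups carry RWV, for rotating wall vessel, followed by Static or by the letter R, read here as rotated. These titles do not say whether the static cultures were also kept in a vessel. A rotating wall vessel turns about a horizontal axis and keeps its contents falling through the medium. It serves on the ground to simulate microgravity. All 6 samples were 2T3 cells at passage 8 to 10. 2T3 is a single clone from the calvaria of mice in which a BMP2 promoter drives a viral T antigen. The labels give no genotype or treatment that differs between the groups beyond the culture, and do not say whether the replicates were separate cultures. The p-values below therefore describe the spread among these 6 samples, which may be technical.

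TGF-beta is secreted as a dimer wrapped in its own propeptide, and this latent complex is bound to a latent TGF-beta binding protein that anchors it to fibrillin and fibronectin in the matrix. Integrins and proteases release the active ligand, which joins the type II receptor to the type I receptor, and the type I kinase then phosphorylates Smad2 and Smad3. Bone matrix is one of the largest stores of latent TGF-beta in the body, and osteoblasts both make the factor and answer to it. Activin A, a dimer of the Inhba product, uses other receptors but the same Smads.

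The 100 bases before the annotated start are shown for 3 of the ligand genes, whose windows differ in their letters. Whether these letters bear on the values given further below was not tested. Sequences are from RefSeq (GRCm38.p6), read 5′ to 3′ on the strand of the gene, with capitals marking TATAAA and GGGCGG on either strand; these motifs do not overlap each other. Entries were found for 8 of the 10 genes, and Tgfb3 and Tgfbr3 had none.
Tgfb1, chr7:25686902-25687001, plus strand: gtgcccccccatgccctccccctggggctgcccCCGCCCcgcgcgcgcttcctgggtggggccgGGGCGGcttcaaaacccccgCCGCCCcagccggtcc
Tgfb2, chr1:186705990-186706089, minus strand: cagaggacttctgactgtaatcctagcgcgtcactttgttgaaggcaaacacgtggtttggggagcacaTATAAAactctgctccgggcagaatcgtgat
Inhba, chr13:16011751-16011850, plus strand: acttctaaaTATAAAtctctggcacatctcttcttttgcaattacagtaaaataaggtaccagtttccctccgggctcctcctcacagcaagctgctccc
The Tgfb1 window was 82.0% G and C and held 3 GGGCGG and 0 TATAAA, while those of Tgfb2 and Inhba were 49.0% and 44.0% G and C and held 1 TATAAA each and 0 GGGCGG. Among all 32851 such windows of the RefSeq table, 24.7% held GGGCGG and 5.56% held TATAAA, and the median G and C content was 55.0%. The TATAAA lay near the far end of the window from the start in Inhba and nearer to the start in Tgfb2. A match is a description of letters, not of a bound site.

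Some arrays stood apart before any gene was compared. The signal ratio of the 3' over the 5' actin control probe sets grows when RNA is broken or copied incompletely. It was 1.37, 1.29 and 1.34 in static 1, 2 and 3 and 3.21, 1.57 and 1.48 in rotated 1, 2 and 3. Every rotated array thus lay above every static array, with rotated 1 far above the rest. The same ratio of the Gapdh controls was 0.748 to 0.875 on all 6. Static 1 had the highest median signal, 130.1, against 70.0 to 88.8. The source field of 2 static samples, static 2 and static 3, names microgravity against their titles, and the titles were followed. Of 8 osteoblast lineage markers all passed the filter, and their summed signal was 48045 to 50926 in the static and 35498 to 42787 in the rotated arrays, nearly all from Col1a2, Cdh11 and Col1a1. Of 4 adipocyte markers 2 were found in the deposited data and 1, Fabp4, passed the filter. Their summed signal (2965 to 4727 static, 2468 to 2904 rotated, nearly all from Fabp4) also did not overlap between the groups. The summed signals of muscle markers (195.2 to 235.7 static, 123.0 to 180.2 rotated) did not overlap either, while those of cartilage, blood, endothelium and epithelium overlapped. Of 4 cartilage markers 3 passed the filter, among them Col2a1 at 444.4 to 2387.4, and of 4 epithelial markers 2 passed. The muscle markers were dim, 2 of 4 passed the filter, and they did not move together. The median was lower in the rotated arrays for Actc1 (46.7 against 78.7) and Myog (13.6 against 21.6), and higher for Myod1 (53.9 against 37.9) and Des (50.9 against 48.2). Of 4 blood markers 3 passed the filter (Csf1r at 168.7 to 261.7, Adgre1 at 71.7 to 219.8 and Cd68 at 55.1 to 72.5) and Ptprc did not; of 4 endothelial markers Kdr passed and Pecam1, Cdh5 and Tek did not. In bulk RNA, fewer cells of a type and less RNA per cell cannot be told apart, and the part of these markers in the results below was not tested.

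None of the 21 tested TGF-beta probe sets passed the test between rotated and static cells. In limma with Benjamini-Hochberg adjustment over all 27022 tested probe sets, their adjusted p ran from 0.592 to 0.980, and 0.00% of all tested probe sets were called (0 of them, smallest adjusted p 0.3, with 2228 at an unadjusted p under 0.05). Of the members, 10 were higher and 11 lower by their means, with a median log2 difference of -0.05, where 47.4% of all probe sets were lower and the median was 0.03. An unadjusted p under 0.05 was found for 1 member, or 4.76%, against 8.25% of all tested probe sets (4.34% higher and 3.90% lower); that member was higher. The groups did not overlap in 3 members, or 14.3%, against 15.1% of all. Neither share was above the background, so the values below are described as measured differences. By role, 5 of 7 ligand and 6 of 7 receptor probe sets were lower, and all 7 probe sets of the binding proteins were higher. Whether the roles differ was not tested.

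**Figure D1:**
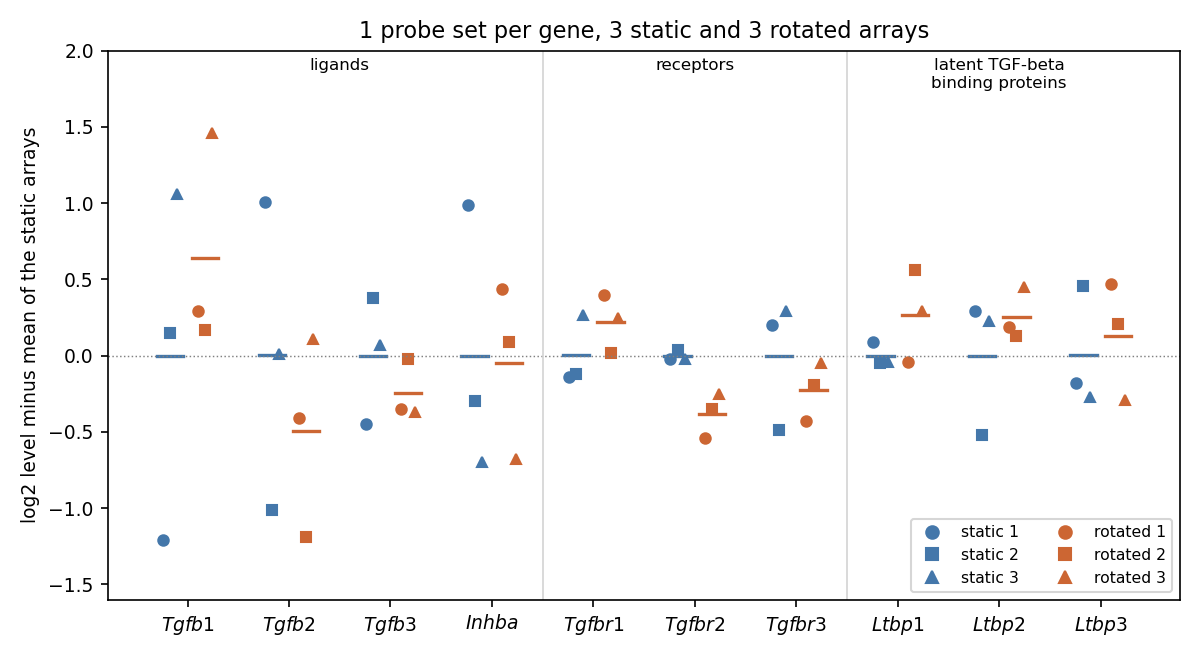
Normalised log2 level of 1 probe set per gene on each array, minus the mean of the 3 static arrays of that gene; marker shapes are replicate numbers, blue is static, orange is rotated, and bars are group means (n = 3). The rotated values of Tgfbr2 sit 0.25 to 0.54 below the static mean and outside the static values, while the ligands Tgfb1, Tgfb2 and Inhba spread over 1.69 to 2.27 log2 units within the static group alone.

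Among the ligands, Tgfb1, the main TGF-beta of bone matrix, had deposited signals of 189.0, 385.4 and 785.4 in static 1, 2 and 3 and of 384.3, 392.2 and 1036.0 in rotated 1, 2 and 3. The groups overlapped, and the static arrays alone ranged more widely than the group means differed. On the normalised scale the log2 difference, rotated over static, was 0.64 ± 0.55 (limma SE, n = 3 per group, adjusted p 0.726), with a 95% confidence interval of -0.61 to 1.88. Taken by replicate number, the log2 difference was 1.5, 0.02 and 0.40. Over the 18 alternatives the difference ran from -0.24 with array weights to 1.17 without static 3 (adjusted p 0.374 to 1.0 in limma). It was 0.03 without static 1, 0.23 without rotated 3 and 0.97 with the actin ratio in the fit. A second Tgfb1 probe set (1445360_at) had signals of 170.5, 69.4 and 19.8 in static 1 to 3, the reverse of the order of the first, and of 82.8, 117.0 and 55.3 in the rotated arrays, with a difference of 0.35 ± 0.51.

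Inhba, which encodes the subunit of activin A, had signals of 1813.1, 763.5 and 601.6 in static 1, 2 and 3 and of 1234.3, 995.2 and 612.2 in rotated 1, 2 and 3. The log2 difference was -0.05 ± 0.44 (adjusted p 0.980), and its interval, -1.05 to 0.95, leaves room for a difference of nearly 2-fold either way. In both groups the array numbered 3 had the lowest Inhba signal and the highest signal of Tgfb1 1420653_at, and the array numbered 1 had the highest Inhba. The other tested Tgfb1 probe set, 1445360_at, was instead lowest in static 3 and rotated 3, as Inhba was. The second Inhba probe set (1458291_at) lay below the filter, with signals of 4.2 to 107.8 and its highest value again in static 1.

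Tgfb2, the isoform that needs betaglycan for strong receptor binding, was dim. Its brightest probe set (1450923_at) had signals of 317.3, 47.9 and 129.2 in the static and of 100.7, 48.2 and 135.5 in the rotated arrays. The lowest value of each group was in the array numbered 2, and the highest of all was static 1. The log2 difference was -0.50 ± 0.54 (adjusted p 0.785), and it was 0.01 without static 1. The other tested Tgfb2 probe sets stood at -0.34 ± 0.54 (1423250_a_at), which also had its highest signal in static 1 (233.0, against 31.7 to 59.8 elsewhere), and at -0.27 ± 0.52 (1450922_a_at), whose lowest signal was in rotated 1 (14.7, against 50.1 to 65.7). The rotated mean of 1450922_a_at, 5.86, lay below the filter's threshold of 5.96, and its static mean, 6.13, lay above it. The remaining Tgfb2 probe set (1438303_at) lay below the filter, with 113.6 in static 1 and 4.0 to 18.0 on the other arrays. Of the 7 ligand probe sets 5 were lower and 2 higher; without static 1, 2 were lower and 5 higher, and with median centring 4 were lower and 3 higher. Of all tested probe sets 49.1% were lower without static 1 and 40.5% with median centring, against 47.4% as reported.

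Tgfb3, the third isoform, had signals of 368.3, 624.1 and 526.8 in the static arrays and of 329.2, 463.9 and 375.8 in the rotated ones. These rotated signals lay in the lower part of the static range or below it. On the normalised scale all lay inside it, at 8.59, 8.92 and 8.57 against 8.49, 9.32 and 9.01 in the static arrays. There rotated 1 stood 0.1 above static 1. The log2 difference was -0.25 ± 0.28 (adjusted p 0.793), and its sign was the same under all 18 alternatives, from -0.47 to -0.06.

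Of the receptors, Tgfbr2, the type II receptor that binds the ligand first, gave the tightest values. Its brightest probe set (1426397_at) had signals of 2606.7, 2944.1 and 2731.8 in the static arrays and of 1919.2, 2199.9 and 2368.6 in the rotated arrays. All rotated values lay below all static values, and the static arrays had an SD of 0.04 on the log2 scale. The log2 difference was -0.38 ± 0.18, a 1.3-fold lower level, with an unadjusted p of 0.0650 and an adjusted p of 0.609 in limma. The exact permutation test over the 6 arrays (two-sided) gave 0.1, the smallest p that 3 against 3 arrays allow. The difference kept its sign under all 18 alternatives, from -0.44 to -0.22, and was -0.30 without rotated 1. A non-overlap with lower rotated values occurred in 7.29% of all tested probe sets.

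The second Tgfbr2 probe set (1425444_a_at), of a kind designed against several transcripts of one gene, had signals of 115.0, 316.8 and 378.1 in the static arrays and of 15.3, 112.6 and 276.7 in the rotated arrays. It was lowest in rotated 1, and static 1 was also low, so the groups overlapped. The log2 difference was -1.07 ± 0.80 (adjusted p 0.696) and -0.20 ± 0.65 without rotated 1. The third probe set (1422019_at) lay below the filter, with signals of 5.5 to 31.6.

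Tgfbr1, the type I kinase receptor, was represented by a probe set (1420895_at) with signals of 1680.8, 1769.8 and 2342.5 in the static arrays and of 2566.1, 1975.6 and 2326.3 in the rotated ones. Here rotated 1 was the highest array, and the groups overlapped (log2 difference 0.22 ± 0.21, adjusted p 0.744). A further probe set (1420894_at) had signals of 221.6, 282.0 and 442.4 against 156.5, 291.9 and 369.8, and stood at -0.09 ± 0.38. The third (1420893_a_at) had 269.5, 231.5 and 406.3 in the static arrays and 24.2, 160.0 and 307.6 in the rotated ones. Rotated 1 thus had the highest signal of one Tgfbr1 probe set and the lowest of the others. The log2 difference of the third was -1.16 ± 0.66 (adjusted p 0.637) and -0.29 ± 0.36 without rotated 1.

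Tgfbr3 encodes betaglycan, a coreceptor that presents TGF-beta and inhibin. Its brightest probe set (1433795_at) had signals of 5007.7, 3454.4 and 5634.9 in the static arrays and of 3616.1, 4211.8 and 4543.8 in the rotated ones, all rotated values falling inside the static range (log2 difference -0.22 ± 0.24, adjusted p 0.780). The other probe set (1425620_at) had 373.5, 494.3 and 786.3 against 148.6, 380.7 and 571.7. It was lowest in rotated 1, with a difference of -0.64 ± 0.45 (adjusted p 0.677), and -0.15 ± 0.35 without that array.

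In each receptor gene, then, the probe set chosen to represent it differed by no more than 0.38 in size. Another of each gene differed by -1.16, -1.07 or -0.64, with its lowest value in rotated 1, whose actin ratio was 3.21. Rotated 1 was also lowest for the chosen Tgfbr2 probe set, 1426397_at, at -0.38, and for Tgfbr1 1420894_at, at -0.09. Of the 7 receptor probe sets 6 were lower, with a median of -0.38. The count was the same with the values as deposited and with median centring, where 53.0% and 40.5% of all tested probe sets were lower. Without rotated 1, 5 of 7 were lower and the median was -0.15. When the fit held each array's actin ratio as a covariate, which sets mainly rotated 1 apart, 2 of 7 were lower and the median was 0.12. That ratio was also higher in every rotated array than in every static array. The ratio and the group therefore cannot be fully told apart in this fit. Where the probes of each set lie along the transcript was not used here, and the part of the RNA control ratio in these differences was not tested.

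**Figure D2:**
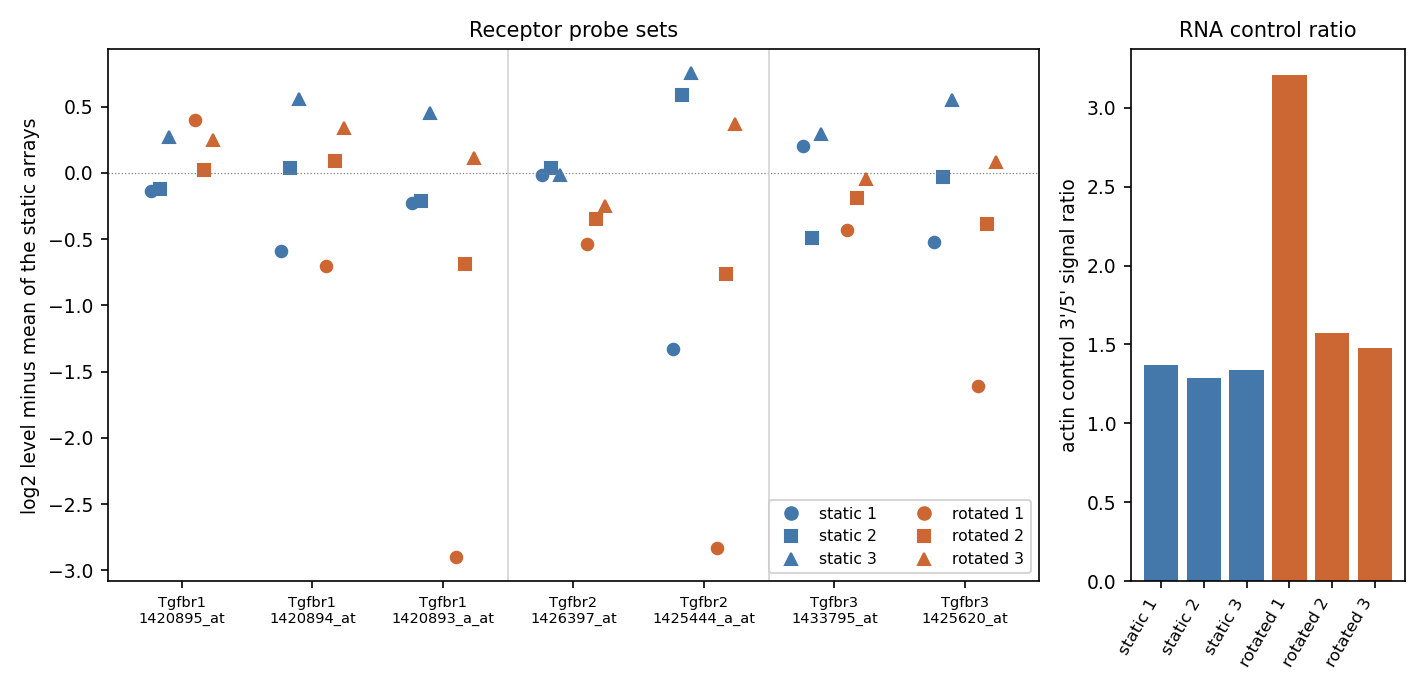
Left, normalised log2 level of the 7 tested receptor probe sets on each array, minus the mean of the static arrays; marker shapes are replicate numbers, blue is static, orange is rotated. Right, the 3' over 5' signal ratio of the actin controls on each array, where rotated 1 (3.21) is the highest. On the left, rotated 1 is the lowest array for Tgfbr1 1420893_a_at and 1420894_at, Tgfbr2 1425444_a_at and 1426397_at, and Tgfbr3 1425620_at. It is the highest for Tgfbr1 1420895_at and lies inside the static range for Tgfbr3 1433795_at.

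The replicate numbers of the titles may pair the samples, since same-numbered arrays deviated together. With the number as a block in the limma fit, 5 of the 21 tested probe sets, or 23.8%, had an unadjusted p under 0.05, against 14.6% of all tested probe sets, and 0 passed after adjustment, against 0.00740% of all (smallest adjusted p of a member 0.243). Of these 5, 4 belonged to receptors and were lower in the rotated array of every pair: Tgfbr2 1425444_a_at (p 0.0139), Tgfbr3 1425620_at (p 0.0270), Tgfbr2 1426397_at (p 0.0342) and Tgfbr1 1420893_a_at (p 0.0452). The differences of the first of these were -1.49, -1.34 and -0.38 in pairs 1, 2 and 3, and those of Tgfbr2 1426397_at were -0.52, -0.39 and -0.23. In each of these 4 probe sets the largest pair difference was that of pair 1, which holds rotated 1.

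The latent TGF-beta binding proteins were higher in value for all 7 tested probe sets, with a median log2 difference of 0.27, where 52.6% of all tested probe sets were higher. The count held with the values as deposited and with median centring, and was 6 of 7 under 7 of the 18 alternatives, among them leaving out static 1, static 2, static 3, rotated 1 or rotated 3. Median centring moved the whole table up, with 40.5% of all tested probe sets lower, against 47.4% as reported. Ltbp1, which tethers latent TGF-beta to the matrix, had signals of 1823.9, 1714.4 and 1757.2 in the static arrays and of 1707.5, 2649.1 and 2194.3 in the rotated ones (1448870_at). Rotated 2 and rotated 3 stood above all static arrays, and rotated 1 just below them in deposited signal. The log2 difference was 0.27 ± 0.21 (adjusted p 0.708), and 0.42 ± 0.20 without rotated 1. A dimmer Ltbp1 probe set (1447547_at) had 72.2, 60.7 and 88.3 against 162.0, 79.9 and 91.8, with its highest value in rotated 1 and a difference of 0.63 ± 0.40. The last one (1419786_at) lay below the filter, at 2.8 to 68.8.

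Ltbp2, a family member that associates with elastic microfibrils and does not itself bind latent TGF-beta, had signals of 2900.5, 1733.0 and 2933.3 in the static arrays and of 2890.4, 2765.9 and 3442.3 in the rotated ones. Only static 2 was low, and rotated 3 was the highest array. The log2 difference of 0.26 ± 0.25 (adjusted p 0.755) was -0.01 without static 2.

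Ltbp3, needed for normal bone growth in mice, had 4 tested probe sets that did not give one picture. The brightest (1438312_s_at) had signals of 3168.4, 5408.3 and 3153.3 in the static and of 5750.4, 4506.8 and 3132.7 in the rotated arrays, with full overlap (log2 difference 0.13 ± 0.26, adjusted p 0.892). The next (1418049_at) had 1109.7, 1417.6 and 1583.0 against 1129.4, 1517.0 and 1667.8. In this probe set each rotated array stood slightly above the static array of its number, by 0.06 to 0.09 on the log2 scale, and the difference was 0.08 ± 0.22.

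The other Ltbp3 probe sets were dim and did not overlap between the groups on the normalised scale. The first of these (1456189_x_at) had signals of 44.2, 75.9 and 69.3 in the static arrays and of 139.8, 194.5 and 173.5 in the rotated arrays. Every rotated signal was above every static one, with a log2 difference of 1.36 ± 0.42, a 2.57-fold higher level (95% confidence interval 0.41 to 2.31). Its unadjusted p, 0.0101, was the smallest of all members, its adjusted p was 0.592, and the exact permutation test (two-sided) gave 0.1. It had p 0.00569 with the replicate block. The difference was 0.92 to 1.62 over the alternatives and 1.48 ± 0.49 without rotated 1. Probe sets with this suffix hold probes that can match other transcripts, and the static mean of 6.21 lay near the filter's threshold of 5.96, so the offset log2 scale understates the fold. The second (1437833_at) had 123.9, 88.7 and 42.4 against 123.5, 101.6 and 98.1; its deposited signals overlapped, and only after quantile normalisation did the groups part, with a difference of 0.53 ± 0.36 (adjusted p 0.670). A non-overlap with higher rotated values occurred in 7.82% of all tested probe sets.

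**Figure D3:**
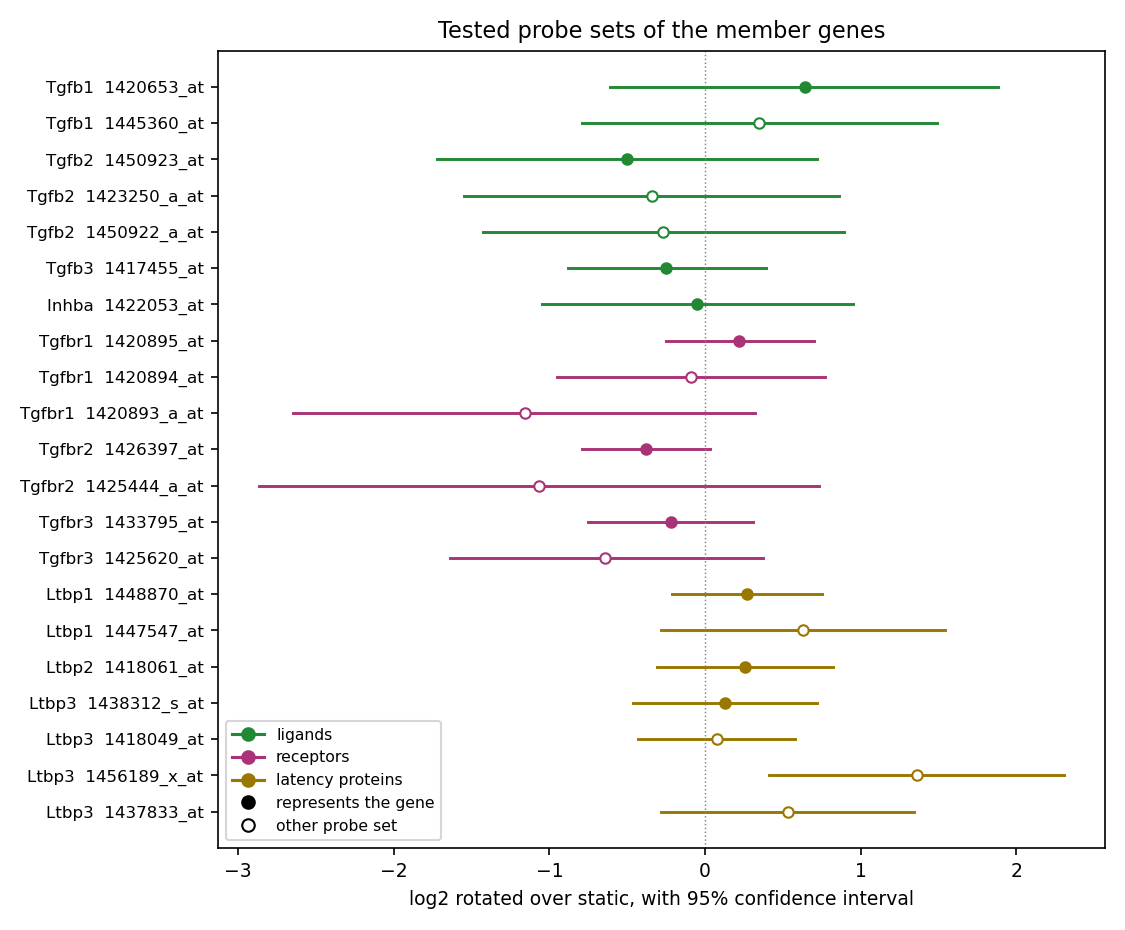
Log2 difference, rotated over static, of the 21 tested probe sets with limma's 95% confidence interval (n = 3 per group); filled points represent their gene, open points are its other probe sets. The interval of 1 probe set, Ltbp3 1456189_x_at (0.41 to 2.31), lies off 0, before any adjustment for the number of tests.

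The other genes of the pathway were counted from lists, with 1 probe set per gene, beside the 12554 genes tested. Of all genes 53.2% were higher and 46.8% lower in the rotated samples and the median difference was 0.03; an unadjusted p under 0.05 was found for 3.74% in the lower and 4.49% in the higher direction, and 0.00% passed after adjustment. No gene of any list passed after adjustment (limma, smallest adjusted p 0.316). With the replicate block 14.6% of all tested probe sets had an unadjusted p under 0.05, against 8.25% in limma without it. That share was not counted for the other alternatives, so list counts at that p under them have no background beside them. With median centring 40.5% of all tested probe sets were lower, with a median of 0.1. The lower share was 46.7% without rotated 1 and 46.0% with the actin ratio in the fit.

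Genes that activate TGF-beta or store it in the matrix were lower in value for 15 of the 19 tested of 25 listed, with a median of -0.39, and 4 had an unadjusted p under 0.05, all lower. These were decorin (Dcn), a proteoglycan that binds TGF-beta, at -0.44 ± 0.12, the related fibromodulin (Fmod) at -1.50 ± 0.44, the integrin subunit Itgb1 at -0.94 ± 0.34 and the gelatinase Mmp2 at -0.46 ± 0.21. Rotated 1 was the lowest array for Itgb1 (2189.8, against 5536.1 to 8138.2 on the other arrays) and for Fmod (185.3, against 336.2 to 1476). Dcn and Mmp2 were lowest in rotated 3 and rotated 2. The deposited Dcn signals overlapped (29355 to 35397 static, 23276 to 37457 rotated), and the other Dcn probe set stood in the opposite direction. Without rotated 1 the list's count was again 15 of 19 and its median -0.22; with median centring 12 of 19 were lower, the median was -0.21 and 1 gene had an unadjusted p under 0.05. With the actin ratio in the fit 16 of 19 were lower, the median was -0.16 and 1 gene was at that p, while 8 were with the replicate block, 7 with array weights, 6 without rotated 3 and 2 without static 1. Fbn1 and Lrrc32 were not analysed here.

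Among other receptors and coreceptors 5 of 9 tested genes were lower, with a median of -0.08. Cd109, a membrane protein that binds TGF-beta and promotes receptor loss, stood at -0.84 ± 0.35, and its unadjusted p of 0.0408 was the only one of the list under 0.05; no gene of the list had one without rotated 1, static 2 or static 3 or with median centring, where 4 of 9 were lower, or with the actin ratio in the fit. With the replicate block 2 had one, Cd109 (p 0.0130) and Bambi (p 0.00726), as 2 did with array weights and without rotated 3. The pseudoreceptor Bambi, which lacks a kinase and dampens the signal, stood at -0.73 ± 0.36, the type I receptor genes Acvr1c and Acvrl1 at -0.82 ± 0.43 and -0.96 ± 0.54. Acvr1c and Acvrl1 were dim and passed the filter only through the static arrays. Their rotated means, 5.83 and 5.94, lay below its threshold of 5.96, and their static means were 6.65 and 6.9. For Cd109 (361.1) and Acvrl1 (10.3) rotated 1 had the lowest signal by far, against 881.6 to 1528.0 and 63.1 to 187.5 on the other arrays.

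The activin, inhibin and follistatin genes split evenly, 3 of 6 tested lower, or 2 of 6 with median centring. At an unadjusted p under 0.05, 1 was lower, and 2 were with the replicate block, with array weights and without static 2. Fst, the activin antagonist follistatin, had signals of 7537.4, 6825.6 and 5675.0 in the static and of 2588.2, 3284.9 and 3313.3 in the rotated arrays, without overlap (log2 difference -1.18 ± 0.20, p 0.000210, adjusted p 0.316). The inhibin subunit Inha stood at 0.60 ± 0.32 and the activin subunit Inhbb at -0.54 ± 0.34, while the follistatin-like Fstl1 was at -0.21 ± 0.13.

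Smads and their regulators were higher for 11 and lower for 8 of the 19 tested, with a median of 0.01. The endocytic adaptor Dab2, which links the receptors to Smads, stood at 0.52 ± 0.22 (p 0.0433, where 2 of the 3 further Dab2 probe sets were lower), Smad3 at -0.38 ± 0.19, the corepressor gene Skil at 0.46 ± 0.25, with its other probe set opposite, and the common partner Smad4 at 0.43 ± 0.28. Dab2 was the only gene of the list with an unadjusted p under 0.05. Over the alternatives the number of higher genes at that p ran from 0 (among others without rotated 1, static 2 or rotated 2) to 3 (without static 1 and with the replicate block), and that of lower genes from 0 to 1. With the block the lower one was Smad3 (p 0.0376), and the higher ones were Dab2 (p 0.0145), Smad4 (p 0.0124) and Skil (p 0.0383). Smad3 had signals of 1678.4, 1861.7 and 1919.3 in the static arrays and of 1261.9, 1366.7 and 1585.2 in the rotated ones, so its groups did not overlap, as for Tgfbr2.

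Transcripts known to respond to TGF-beta were lower for 18 of 25 tested, with a median of -0.25; 6 lower and 1 higher had an unadjusted p under 0.05. The lower ones with the smallest p were the transcription factor gene Snai2 (-0.59 ± 0.18), Col3a1 (-0.52 ± 0.17), the immediate early gene Junb (-1.11 ± 0.40) and the cell cycle inhibitor gene Cdkn2b (-1.01 ± 0.40). The higher one was Cdkn1a, also a cell cycle inhibitor, at 1.14 ± 0.50, chosen after its value was seen, as were the remaining lower ones, Tpm1 (-0.56 ± 0.23) and Col1a1 (-0.79 ± 0.34). Col1a1 was lowest in rotated 1 (3316.2, against 6592 to 10633.6 on the other arrays). The deposited signals of Junb, Cdkn2b and Tpm1 were also lowest in rotated 1, and those of Snai2 and Col3a1 in rotated 3. Without rotated 1, 16 of 25 were lower, with a median of -0.14 and 2 lower with an unadjusted p under 0.05; with median centring 14 were lower, with a median of -0.08 and 0 lower genes at that p. With the actin ratio in the fit 15 were lower, with a median of -0.02 and 1 lower gene at that p; the replicate block gave 8 lower and 2 higher genes, array weights 9 and 1, leaving out static 3 gave 3 and 1, and leaving out static 1 gave 5 and 3. Targets of TGF-beta such as Ccn2 (0.64 ± 0.54) and Tagln (-0.70 ± 0.39), also named after their values were seen, lay on both sides of 0. Several of these genes respond to other signals as well. The lists share genes, so their counts are not separate. Skil, Smad7 and Pmepa1 were also counted among the Smads and their regulators, and Fn1 among the activation and storage genes.

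**Figure D4:**
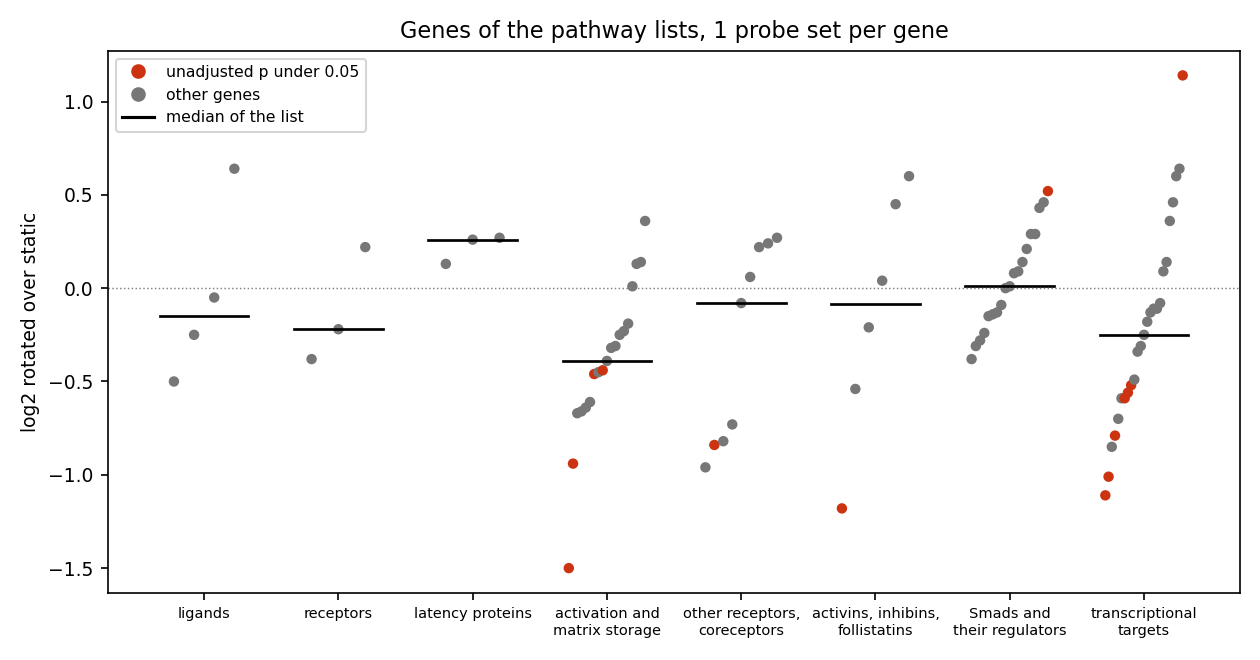
Log2 difference, rotated over static, of each tested gene in the ligand, receptor and latency groups and in 5 lists of other pathway genes, with 1 probe set per gene; black bars are medians and red points have an unadjusted p under 0.05. The medians run from -0.39 for activation and matrix storage to 0.26 for the latency proteins, and no point passed after adjustment.

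**Figure D5:**
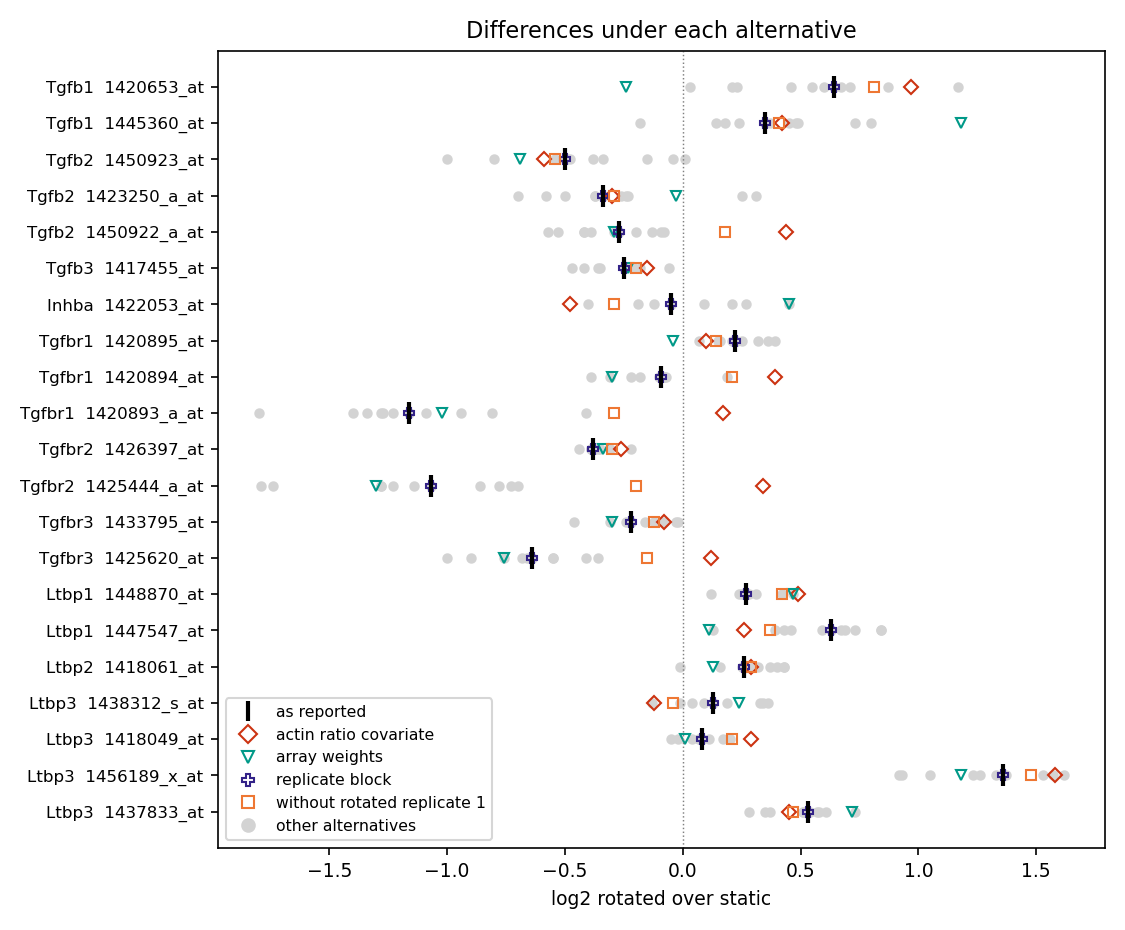
Log2 difference of each tested probe set as reported (black bar) and under 18 alternatives; diamonds have each array's actin ratio in the fit, triangles use array weights, crosses use the replicate block, squares leave out rotated 1 and grey points are the others. The receptor probe sets at -1.16, -1.07 and -0.64 move to 0.17, 0.34 and 0.12 with that ratio in the fit. Their limma SE is then 0.41, 0.69 and 0.38. The ratio was higher in every rotated than in every static array, so ratio and group cannot be fully told apart there. Ltbp3 1456189_x_at stays between 0.92 and 1.62 over the alternatives.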

How the data were processed

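RNA of each sample was read on a 1-colour Affymetrix mouse array, per the labels. Each deposited value is a linear intensity of a probe set; with 2% trimmed at both ends, the mean was 500.0 on all 6 arrays. How the authors summarised the probes is not given in the sources used, and detection calls were not used here. The authors' intensities were put on a log2 scale after 16.6, their 20th percentile, was added to each, which understates differences of dim probe sets. Because array medians differed by up to 85.9%, quantile normalization followed. Then 64 control probe sets and those with a mean below the 40th percentile (log2 5.96) were left out. Symbols came from the platform's annotation, updated through RefSeq gene identifiers (GRCm38.p6): of 45037 probe sets 34945 had 1 symbol, 932 several and 9160 none. No probe set of several symbols held a member.

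The test was limma 3.58.1 (R 4.3.3), fitted with lmFit and moderated by eBayes with a trend over intensity, two-sided, adjusted by Benjamini-Hochberg over 27022 probe sets at 0.05; the number of arrays limits the precision. The steps were tested on simulated data. In lists, the probe set of highest mean stood for its gene. Every member was described, with the 4 smallest p in each list of pathway genes. Deviations of same-numbered arrays from their group means correlated at 0.196, 0.313 and 0.334, so the numbers may pair the samples; the labels do not say what they stand for. Alternatives changed the scaling, offset, filter, limma options and array weights, added the replicate block or the actin ratio, or left out arrays. The members, lists and alternatives were chosen with earlier results of these data known.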

Additional observations from a re-analysis of the deposited data

How the results depend on the processing

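None of the 21 member probe sets passed after adjustment under any of 18 alternatives, and 344 of 370 member differences kept their sign. Over all probe sets, 22 passed with array weights and 2 with the replicate block, none of them a member. The count of member probe sets lower in the rotated samples, 11 of 21, was 7 of 13 with the stricter filter and 7 of 21 with the arrays' actin ratio in the fit. Of all tested probe sets 47.6% and 46.0% were then lower. The count with an unadjusted p under 0.05, 1 of 21, was 0 with the stricter filter (which leaves out that probe set), 8 with array weights, 5 with the replicate block, and 1 to 3 with 1 array left out (2 without static 3, 3 without rotated 3). The share of all tested probe sets at that p was 14.6% with the block. It was not counted for array weights or with arrays left out, so those counts stand without a background. The array weights were uneven, at 3.32 for static 3 and 2.55 for rotated 2 against 0.355 for static 1 and 0.411 for rotated 1. Counts from that fit, also those of the lists, thus rest mainly on few arrays. The block also moved the unadjusted counts of the pathway lists, as given with them, and gave no adjusted call among the members or list genes.

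These member differences changed sign, and the cause was not tested. With that ratio in the fit, Tgfbr1 1420893_a_at was 0.17, Tgfbr1 1420894_at 0.39, Tgfbr2 1425444_a_at 0.34, Tgfbr3 1425620_at 0.12, Ltbp3 1438312_s_at -0.12 and Tgfb2 1450922_a_at 0.44. With array weights, Tgfb1 1420653_at was -0.24, Tgfbr1 1420895_at -0.04 and Inhba 1422053_at 0.45, and with median centring that Inhba probe set was 0.09. Without static 1 and rotated 1 together, Inhba 1422053_at was 0.21, Tgfb2 1423250_a_at 0.31 and Ltbp3 1438312_s_at -0.13. With single arrays left out in turn, the ranges were -0.40 to 0.45 for Inhba 1422053_at, -0.05 to 0.21 for Ltbp3 1418049_at, -0.04 to 0.36 for Ltbp3 1438312_s_at, -0.01 to 0.40 for Ltbp2 1418061_at, -0.39 to 0.21 for Tgfbr1 1420894_at, -0.18 to 0.73 for Tgfb1 1445360_at, -0.70 to 0.25 for Tgfb2 1423250_a_at, -0.57 to 0.18 for Tgfb2 1450922_a_at and -1.0 to 0.01 for Tgfb2 1450923_at. Counts by role and by list under these alternatives were added after the data were seen.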
